A study of Mus musculus with 8 samples.

Results

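The genes described are 45 genes of autophagy, mitophagy and the lysosome, read through the open chromatin at and inside them in mouse dendritic cells with and without the mitochondrial fusion protein OPA1. They were grouped by function into 14 initiation genes, 11 conjugation genes, 8 receptor genes and 12 lysosome genes. All regions of the deposited table that lay inside the RefSeq gene span of a member on GRCm38, or within 1 kb of either end of it, were taken. No measured value entered that choice of regions, but the members themselves were chosen with earlier results of these data known. This gave 153 of the 59906 regions in the table: 44 at initiation genes, 45 at conjugation genes, 23 at receptor genes and 41 at lysosome genes. No region belonged to more than 1 member. The libraries came from conventional type 1 dendritic cells (cDC1) sorted from spleen, the dendritic cells that excel at cross-presenting captured antigen to CD8 T cells. Of the 8 ATAC-seq libraries, 4 came from OPA1-deficient mice (CD11c-Cre; OPA1 flox), in which Cre is driven by the CD11c promoter and so can act in any CD11c-expressing cell, and 4 came from WT mice. The sources used here give neither the age of the mice, nor whether WT mice carried Cre or the floxed allele, nor which animal or pool of animals gave each library, and the p-values therefore cover only library-to-library spread, part of which may be technical.

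In autophagy, a double membrane grows around cytoplasm or organelles, closes to form an autophagosome and fuses with lysosomes, whose acid-dependent enzymes degrade the contents. The ULK kinase complex and the class III PI3-kinase complex start the membrane, a ubiquitin-like conjugation system attaches LC3 and GABARAP proteins to it, and receptors that bind these proteins bring in the cargo. Mitophagy is the form that removes mitochondria, through PINK1 and ubiquitin-binding receptors or through receptors in the outer mitochondrial membrane, and the transcription factors TFEB and TFE3 drive many lysosome genes. In dendritic cells the same endolysosomal system processes captured antigen.

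In ATAC-seq a transposase inserts adapters into accessible DNA, and counts over a region measure how open it is. Totals over all regions ran from 5522153 to 7590578 counts in OPA1-deficient libraries and from 4660826 to 6777651 in WT libraries. Levels are given as CPM, the count in a region relative to the library's total, scaled by the TMM method, with means ± SD (n = 4 per group). Fold changes are log2, OPA1-deficient minus WT, ± standard error, from edgeR's quasi-likelihood test fitted across all regions, with Benjamini-Hochberg adjustment and a threshold of 0.05. The 1 region at Opa1 itself, over its start, had 34.5, 41.3, 37.9 and 43.0 CPM in OPA1-deficient libraries, against 47.0, 40.7, 42.8 and 37.8 CPM in WT libraries. The labels do not say which exons are floxed, so this region does not check the genotype. All 13 of 13 cDC1 marker genes had regions, with summed levels of 958 ± 32.5 CPM in OPA1-deficient and 942 ± 25.7 CPM in WT libraries. The summed levels of marker lists for cDC2, plasmacytoid dendritic cells, macrophages, B cells, T cells, NK cells, neutrophils and erythroid cells also overlapped between the groups. The groups did not overlap at 3 of 12 tested macrophage markers, 1 of 4 plasmacytoid dendritic cell markers and 1 of 3 T cell markers. At all tested markers of the other lists they overlapped, and 3.29% of all gene models were without overlap. OPA1-deficient libraries were all lower at the macrophage markers C1qb, Vcam1 and Hmox1. They were all higher at Ccr9, a plasmacytoid dendritic cell marker, and at Tcf7, a T cell marker.

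Promoter sequence was available for 37 of the 45 members in the RefSeq table for GRCm38.p6, as windows from 250 bases before to 50 bases after a transcript start. A region of the table lay over such a window in 36 of the 37 members (97.3%), Atg7, whose window lies far inside its gene, being the exception, against 9225 of 17492 protein-coding genes with a window (52.7%). Because TFEB and TFE3 bind the CLEAR element, whose core is TCACGTGA, the windows were searched for that core and for the shorter E-box CACGTG that lies within it. Both are palindromes and read the same on either strand. The core was found in 5 of the 42 windows of these members (11.9%), against 0.974% of all windows and 1.97% of all windows with a region over them. The 5 stretches, with the core in capitals, are printed 5′ to 3′ on the strand of the gene.
Atg3 (chr16:45158747-45158774, plus strand): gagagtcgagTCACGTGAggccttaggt
Atp6v0d1 (chr8:105566051-105566078, minus strand): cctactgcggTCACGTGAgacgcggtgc
Atp6v1a (chr16:44139374-44139401, minus strand): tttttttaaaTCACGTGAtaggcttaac
Ctsd (chr7:142387909-142387936, minus strand): cgcccgcgtcTCACGTGAcccgttgagg
Mcoln1 (chr8:3500463-3500490, plus strand): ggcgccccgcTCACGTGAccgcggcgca

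The cores began 72, 4, 132, 99 and 46 bases before the transcript starts of Atg3, Atp6v0d1, Atp6v1a, Ctsd and Mcoln1. An E-box, with or without the full core, was found in 11 of the 42 windows (26.2%), against 7.15% of all windows and 10.8% of those with a region. Lamp1 held 4 E-boxes, between 61 and 15 bases before its start. Of other motifs, the ETS core CCGGAAGT was in 2 member windows (4.76%, against 8.54% of windows with a region), the NRF1 palindrome in 1 (2.38%, against 2.28%), and the CCAAT box, searched as CCAAT, in 11 (26.2%, against 37.8%), on either strand. These matches are descriptions of letters: no binding was measured, and the windows were not matched for base composition, with a median GC content of 59.7% in member windows and 61.7% in windows with a region. The whole windows of the 4 members whose regions are described most closely below follow in the same orientation, with every E-box or CLEAR core in capitals. Lamp2 and Atg14 had the lowest fold changes of summed counts, and Bnip3 had the strongest region per kb among the mitophagy genes. Atp6v1a holds a CLEAR core in its start region, where the groups overlapped, while another region, upstream of the start, had separated groups.
Lamp2 (chrX:38456411-38456710, minus strand): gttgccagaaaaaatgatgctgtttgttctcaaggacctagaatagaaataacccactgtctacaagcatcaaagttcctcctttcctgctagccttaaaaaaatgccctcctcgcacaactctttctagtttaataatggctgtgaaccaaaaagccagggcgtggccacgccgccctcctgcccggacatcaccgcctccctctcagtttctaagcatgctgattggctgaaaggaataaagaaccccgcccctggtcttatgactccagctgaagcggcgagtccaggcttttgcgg
Atg14 (chr14:47568385-47568684, minus strand): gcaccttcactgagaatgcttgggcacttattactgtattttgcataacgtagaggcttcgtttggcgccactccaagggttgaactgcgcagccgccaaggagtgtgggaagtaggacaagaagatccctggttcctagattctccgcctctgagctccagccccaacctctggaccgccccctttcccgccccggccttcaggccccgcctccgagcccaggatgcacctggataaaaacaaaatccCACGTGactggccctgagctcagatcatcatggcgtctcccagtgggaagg
Atp6v1a (chr16:44139210-44139509, minus strand): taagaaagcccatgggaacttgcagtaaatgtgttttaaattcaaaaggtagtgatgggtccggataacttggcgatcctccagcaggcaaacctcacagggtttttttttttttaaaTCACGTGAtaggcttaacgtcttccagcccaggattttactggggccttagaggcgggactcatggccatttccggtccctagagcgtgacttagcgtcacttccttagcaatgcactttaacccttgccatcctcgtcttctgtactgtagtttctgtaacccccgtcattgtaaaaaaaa
Bnip3 (chr7:138909457-138909756, minus strand): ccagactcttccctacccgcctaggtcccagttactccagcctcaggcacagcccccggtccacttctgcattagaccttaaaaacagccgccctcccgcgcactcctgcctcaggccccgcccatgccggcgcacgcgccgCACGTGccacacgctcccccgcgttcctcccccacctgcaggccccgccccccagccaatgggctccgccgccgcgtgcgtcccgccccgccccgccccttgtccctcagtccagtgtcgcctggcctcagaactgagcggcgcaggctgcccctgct

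The Lamp2 window held none of the searched motifs but a CCAAT box, and the Bnip3 window held both a CCAAT box and an E-box. A single E-box in the Atg14 window began 1 base before the transcript start.

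Chromatin was open at all 45 members in these cells. The strongest region of a member was at a gene end, that is within 1 kb of either end of its span or across it, in 42 of 45 members. Pik3c3 and Atg7, whose regions all lay inside the gene, and Ctss were the exceptions. Taken per kb of region, the strongest regions ran from 18.6 CPM per kb at Gabarapl1 to 221 CPM per kb at Uvrag over the mean of the 8 libraries. Of the 45, 35 lay above the median of the strongest regions of all gene models and 19 at or above their 75th percentile. By class, the median of the strongest regions was 101 CPM per kb for conjugation genes, 91.0 for receptor genes, 79.2 for initiation genes and 67.9 for lysosome genes, with wide overlap between the classes.

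**Figure D1:**
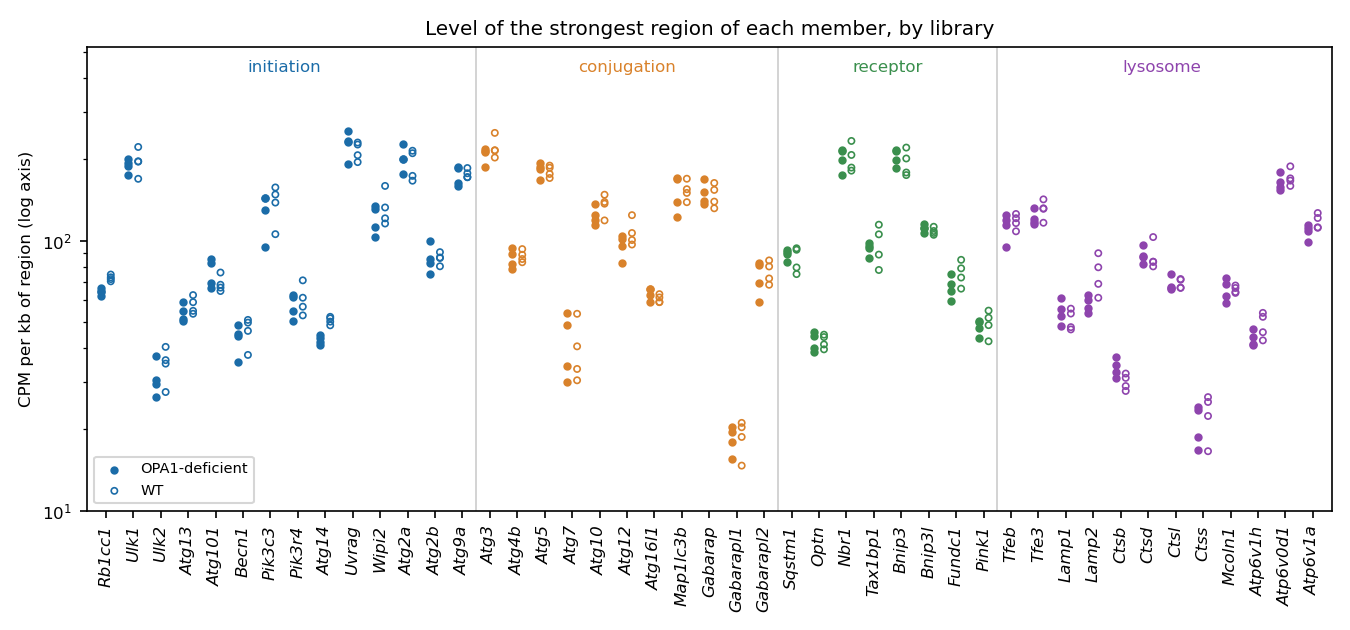
Level of the strongest region of each of the 45 members in CPM per kb of region, on a log axis, by class. Filled points are the 4 OPA1-deficient libraries and open points the 4 WT libraries; members range from 18.6 CPM per kb at Gabarapl1 to 221 CPM per kb at Uvrag, and the groups overlap at all members but Rb1cc1 and Atg14.

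OPA1 deficiency was accompanied by no called difference at any of these genes. With edgeR, 0 of the 151 tested member regions were called at an adjusted p of 0.05, where 12 of all 59247 regions were (0.0203%), and the smallest adjusted p was 0.642, at the start of Lamp2. None of the 45 genes passed on the summed counts of its regions, where 4 of 14431 gene models did (0.0277%), with a smallest adjusted p of 0.871, again for Lamp2. DESeq2 and limma-voom also called 0 member regions and 0 member genes, against 42 of 56949 regions (0.0738%) and 9 gene models (0.0624%) called in all by DESeq2, and 3 regions (0.00506%) and 3 gene models (0.0208%) by limma-voom. At an unadjusted p under 0.05, 4 member regions (2.65%) passed, against 6.38% of all regions. All 4 were lower, at Rb1cc1, Atg3, Lamp2 and Atp6v1a, against 3.48% of all regions lower and 2.9% higher. Of member genes, 3 (6.67%) passed, against 5.47% of all gene models. These 3, Lamp2, Atg14 and Rb1cc1, were also lower, as were 3.95% of all gene models, while 1.52% passed and were higher. These counts hung on single libraries: without WT replicate 2, 9 regions (5.96%) and 5 genes (11.1%) passed, against 8.56% of all regions and 9.11% of all gene models. Without WT replicate 3, 2 regions (1.32%) and 1 gene (2.22%) passed, against 5.48% and 4.06%, and without WT replicate 4 again 2 regions and 1 gene, against 5.53% and 4.08%. Without OPA1-deficient replicate 1, 4 regions (2.65%) and 1 gene (2.22%) passed, against 5.93% and 4.22%. The libraries of the groups did not overlap at 6 member regions (3.97%), which is also the share among all regions (3.97%): OPA1-deficient libraries were higher at 2 and lower at 4, against 1.84% and 2.13% of all regions. Of member genes, 2 (4.44%) were without overlap, Rb1cc1 and Atg14, against 3.29% of gene models.

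The summed counts also bound how large a difference could be. The 95% interval of the fold change lay within 1.5-fold either way for all 45 members and within 1.25-fold for 33 of them. Of all 14431 gene models, 11968 lay within 1.5-fold and 7470 within 1.25-fold. The median standard error was 0.092 for members and 0.108 for all gene models. Fold changes of summed counts ranged from -0.25 for Lamp2 to 0.15 for Atg7, with a median of -0.03 over members and -0.03 over all gene models. They were positive for 16 and negative for 29 of the 45 (64.4%), against 59.2% negative among all gene models. For single regions the intervals were wider, and those of 80 of the 151 stayed within 1.5-fold, against 22120 of all 59247 tested regions. The median over the 151 regions was 0.00, with 77 above 0 and 74 below, against a median of -0.00 over all tested regions. In a bulk library, a difference in the make-up of the sorted cells and a difference in each cell cannot be told apart.

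**Figure D2:**
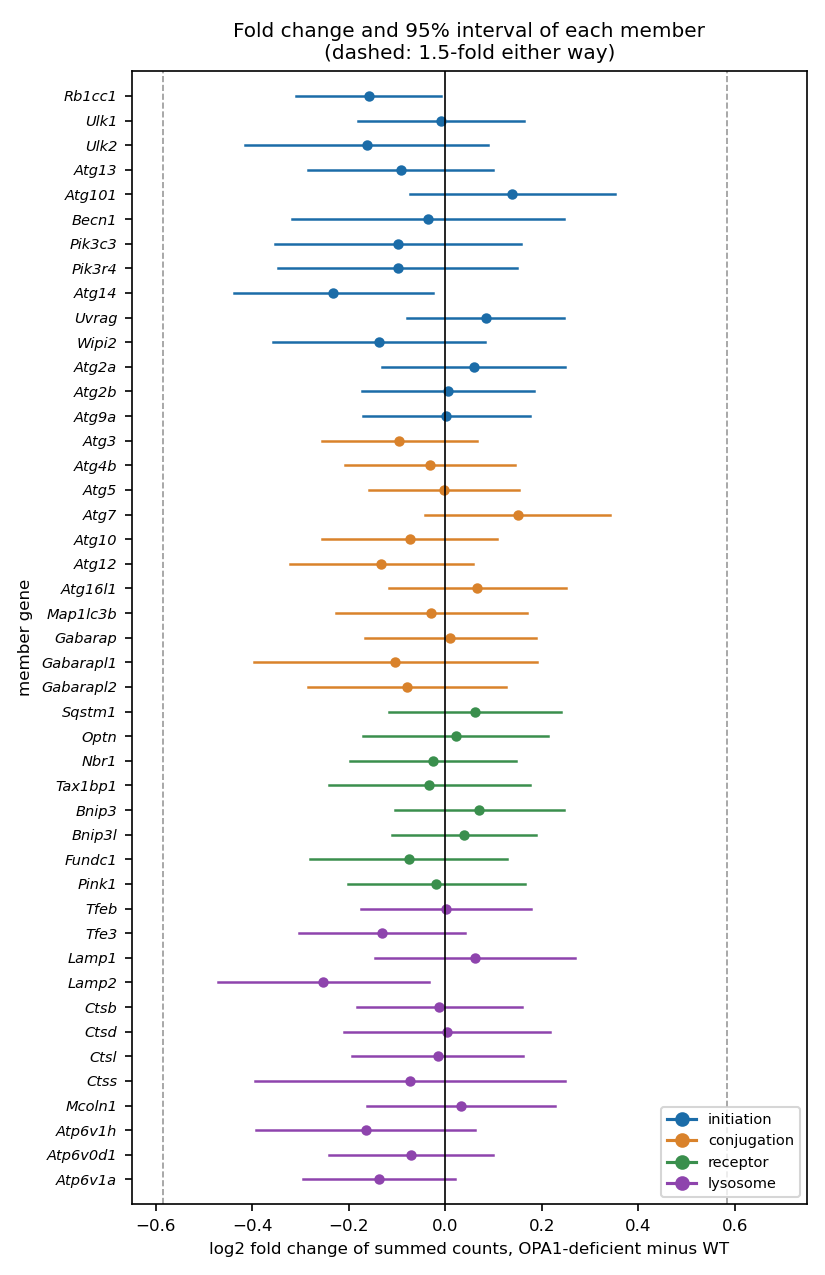
Log2 fold change of the summed counts of each member, OPA1-deficient minus WT, with its 95% interval from the edgeR fit; colours mark the classes and dashed lines mark 1.5-fold either way. All 45 intervals lie between the dashed lines, and those of Lamp2, Atg14 and Rb1cc1 lie just below 0.

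**Figure D3:**
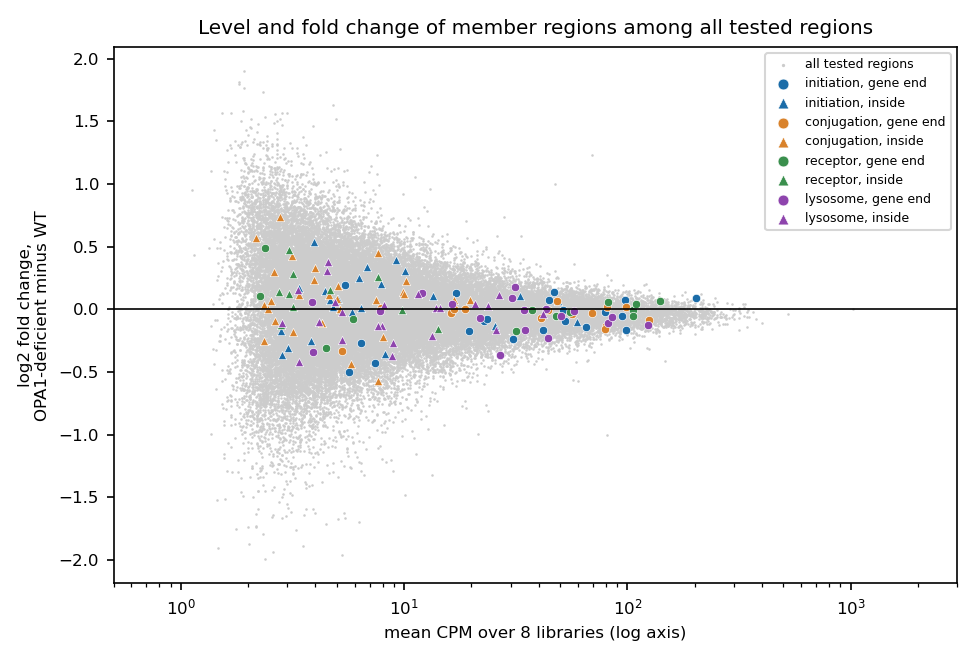
Log2 fold change, OPA1-deficient minus WT, against mean CPM over the 8 libraries on a log axis for all tested regions (grey) and the 151 tested member regions (coloured by class; circles are at gene ends, triangles inside genes). Member regions lie within the grey cloud, which widens towards low CPM, and their strongest regions lie close to 0.

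The summed level of the initiation genes overlapped between the groups, and no region or gene of the class was called. Their 44 regions summed to 1288 ± 65.8 CPM in OPA1-deficient and 1301 ± 65.9 CPM in WT libraries, and of the 43 tested, 21 had a positive and 22 a negative fold change (median -0.01). A single region (2.33%), at Rb1cc1, had an unadjusted p under 0.05, against 6.38% of all regions. By summed counts, 5 of the 14 genes had a positive and 9 a negative fold change.

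In the ULK complex, Rb1cc1 encodes FIP200, the scaffold on which the complex assembles. Its start region (chr1:6214139-6215577) had 93.8, 96.0, 89.8 and 92.5 CPM in the OPA1-deficient libraries, against 102, 104, 105 and 108 CPM in the WT libraries. Every OPA1-deficient library lay below every WT library. The means were 93.0 ± 2.59 CPM in OPA1-deficient and 104 ± 2.55 CPM in WT libraries, a fold change of -0.17 ± 0.08 (unadjusted p = 0.0493, edgeR adjusted p = 0.782). Summed over its 3 regions, Rb1cc1 had 101 ± 3.36 CPM in OPA1-deficient and 113 ± 2.39 CPM in WT libraries (-0.16 ± 0.07, adjusted p = 0.893), also without overlap and also not called. Ulk2, a second ULK kinase with 1 region over its start, had 38.8, 37.7, 47.6 and 33.8 CPM in the OPA1-deficient libraries, against 35.1, 51.6, 44.7 and 46.1 CPM in the WT libraries. The groups overlapped widely (-0.16 ± 0.12, adjusted p = 0.965). Atg101, which stabilises ATG13 in the complex, had 1 region with 42.8, 53.3, 55.1 and 44.9 CPM in the OPA1-deficient libraries, against 41.8, 49.0, 43.1 and 44.1 CPM in the WT libraries. OPA1-deficient replicates 2 and 3 were the highest of the 8 at Atg101, and the other two lay among the WT values (0.14 ± 0.10, adjusted p = 0.965).

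The kinase gene Ulk1 had 2 regions, with 143 CPM in OPA1-deficient and 144 CPM in WT libraries in sum (-0.01 ± 0.08). Atg13, the regulatory subunit, shared its only region with the neighbouring gene Harbi1 and had 50.9 CPM in OPA1-deficient and 54.4 CPM in WT libraries (-0.09 ± 0.09). Per kb, the strongest regions of the complex stood at 193 CPM for Ulk1, 72.7 for Atg101, 68.7 for Rb1cc1, 55.8 for Atg13 and 32.8 for Ulk2.

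Among genes of the class III PI3-kinase complex, which makes the lipid PI3P on the growing membrane, Atg14 encodes the subunit that directs the complex to autophagosome formation. Its start region (chr14:47568049-47568704), over the window printed above, had 27.0, 27.5, 29.4 and 28.5 CPM in the OPA1-deficient libraries, against 33.8, 31.8, 34.2 and 32.8 CPM in the WT libraries. The groups did not overlap, with means of 28.1 ± 1.05 CPM in OPA1-deficient and 33.1 ± 1.06 CPM in WT libraries (-0.24 ± 0.12, unadjusted p = 0.0624, edgeR adjusted p = 0.803). Summed over 3 regions, Atg14 had 39.4, 33.2, 39.6 and 37.4 CPM in the OPA1-deficient libraries, against 43.9, 40.7, 46.4 and 45.2 CPM in the WT libraries. That difference of -0.23 ± 0.10 had an interval of -0.44 to -0.03 and an adjusted p of 0.886, and the lowest WT library lay only slightly above the highest OPA1-deficient library.

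Uvrag, the subunit that takes the place of ATG14 in the endosomal form of the complex, had 12 regions and the strongest single region of all members per kb. That start region (chr7:99140974-99141890) had 214, 213, 234 and 175 CPM in the OPA1-deficient libraries, against 179, 211, 189.5 and 207 CPM in the WT libraries. The groups overlapped (0.09 ± 0.08, edgeR adjusted p = 0.91), with OPA1-deficient replicate 4 the lowest of the 8 libraries and replicate 3 the highest. A weaker region inside Uvrag (chr7:98962607-98963256) had 13.5, 10.1, 8.85 and 9.18 CPM in the OPA1-deficient libraries, against 8.36, 7.95, 8.23 and 7.17 CPM in the WT libraries. It was 1 of only 2 member regions at which every OPA1-deficient library lay above every WT library (0.39 ± 0.21, adjusted p = 0.807). Summed over its regions, Uvrag had 309 ± 23.3 CPM in OPA1-deficient and 291 ± 16.6 CPM in WT libraries (0.08 ± 0.08).

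The catalytic subunit gene Pik3c3 had 3 regions, all inside the gene as annotated, and 65.6 CPM in OPA1-deficient and 70.1 CPM in WT libraries in sum (-0.10 ± 0.12). Pik3r4, the regulatory kinase-like subunit, had 2 regions and 26.4 CPM in OPA1-deficient and 28.4 CPM in WT libraries (-0.10 ± 0.12), and Becn1, encoding Beclin 1, had 2 regions and 27.9 CPM in OPA1-deficient and 28.6 CPM in WT libraries (-0.04 ± 0.14). Of the membrane-expansion genes, Wipi2, a PI3P reader with 1 region, had 62.0 CPM in OPA1-deficient and 68.3 CPM in WT libraries (-0.14 ± 0.11). The lipid-transfer genes Atg2a and Atg2b, with 3 and 6 regions, had 151 CPM in OPA1-deficient and 146 CPM in WT libraries (0.06 ± 0.09) and 76.2 CPM in OPA1-deficient and 75.9 CPM in WT libraries (0.01 ± 0.09). Atg9a, the lipid scramblase of the seed vesicles, had 4 regions and 149 CPM in OPA1-deficient and 149 CPM in WT libraries (0.00 ± 0.08). All of these groups overlapped. Per kb, their strongest regions had 196 CPM at Atg2a, 175 at Atg9a, 133 at Pik3c3, 126 at Wipi2, 85.7 at Atg2b, 59.0 at Pik3r4, 46.8 at Atg14 and 44.8 at Becn1.

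Conjugation genes likewise showed no called difference. Their 45 regions summed to 954 ± 37.3 CPM in OPA1-deficient and 971 ± 30.3 CPM in WT libraries. Of the 44 tested, 27 had a positive and 17 a negative fold change (median 0.02). An unadjusted p under 0.05 was found for 1 (2.27%), against 6.38% of all regions. By summed counts the balance ran the other way, with 3 of 11 genes positive and 8 negative. Of the 27 positive regions, 11 lay inside Atg7 and 7 inside Atg10, all of them weak.

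Atg7, the E1-like enzyme that activates both ATG12 and the LC3 and GABARAP proteins, had 13 regions, all inside its span, with levels from 2.17 to 19.8 CPM. In 11 of the 13 the fold change was positive. In sum Atg7 had 108, 109, 107 and 93.6 CPM in the OPA1-deficient libraries, against 85.2, 110.4, 80.4 and 100.3 CPM in the WT libraries. WT replicate 2 was the highest of all 8 libraries and OPA1-deficient replicate 4 lay below 2 WT libraries (0.15 ± 0.09, edgeR adjusted p = 0.949). The only Atg7 promoter window in the RefSeq table belongs to a transcript start 27969 bp inside the gene span, with no region over it, and no window at the annotated start of the gene was analysed here.

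Atg3, the E2-like enzyme that transfers LC3 to lipid, had the second strongest region per kb (215 CPM), over the start and the CLEAR core printed above and shared with the neighbour Slc35a5. This region (chr16:45158520-45159105) had 126, 125, 128 and 109 CPM in the OPA1-deficient libraries, against 119, 126, 126 and 146 CPM in the WT libraries. OPA1-deficient replicate 4 was the lowest library and WT replicate 4 the highest, with the other 6 close together (-0.08 ± 0.08, adjusted p = 0.918). Inside the gene, a weak region (chr16:45173913-45174240) had 6.25, 4.35, 6.70 and 7.05 CPM in the OPA1-deficient libraries, against 9.43, 7.17, 12.2 and 7.89 CPM in the WT libraries, with all OPA1-deficient values below all WT values. Its fold change of -0.57 ± 0.23 (unadjusted p = 0.02) was the lowest of all member regions and was not called (edgeR adjusted p = 0.692). The other weak region inside Atg3 went the opposite way (0.73 ± 0.39, adjusted p = 0.803), with 3.46 CPM in OPA1-deficient and 2.07 CPM in WT libraries. In sum Atg3 had 135, 131, 139 and 121 CPM in the OPA1-deficient libraries, against 131, 135, 141 and 155 CPM in the WT libraries (-0.10 ± 0.08, adjusted p = 0.965).

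Atg12, the ubiquitin-like protein joined to ATG5, had 3 regions, with 75.6, 89.9, 93.7 and 84.3 CPM in the OPA1-deficient libraries, against 110.2, 83.9, 89.1 and 92.9 CPM in the WT libraries in sum. WT replicate 1 stood highest and OPA1-deficient replicate 1 lowest, and the rest overlapped (-0.13 ± 0.09, edgeR adjusted p = 0.954). Atg10, the E2-like enzyme for ATG12, had 10 regions, 9 of them inside the gene. In sum they had 100.2, 107, 107 and 124 CPM in the OPA1-deficient libraries, against 118, 97.7, 125 and 122 CPM in the WT libraries. The groups overlapped (-0.07 ± 0.09, adjusted p = 0.983), and the start region and the inside regions of Atg10 leaned to opposite sides, with -0.13 ± 0.09 at the start and positive values in 7 of 8 tested regions inside.

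Atg5, the partner of ATG12, had 3 regions and 109 CPM in OPA1-deficient and 109 CPM in WT libraries (-0.00 ± 0.08), and Atg16l1, which places their conjugate on the membrane, had 2 regions and 54.7 CPM in OPA1-deficient and 52.1 CPM in WT libraries (0.07 ± 0.09). The protease gene Atg4b had 1 region, shared with Thap4, and 68.6 CPM in OPA1-deficient and 70.0 CPM in WT libraries (-0.03 ± 0.09). Of the genes of the conjugated proteins, Map1lc3b, encoding LC3B, had 2 regions and 63.8 CPM in OPA1-deficient and 64.9 CPM in WT libraries (-0.03 ± 0.10). Gabarap had 3 regions, each shared with a neighbour, Ctdnep1 or Phf23, and 145 CPM in OPA1-deficient and 144 CPM in WT libraries (0.01 ± 0.09). Gabarapl1 had 2 regions and 20.6 CPM in OPA1-deficient and 22.2 CPM in WT libraries (-0.10 ± 0.14), and Gabarapl2 had 3 regions and 61.8 CPM in OPA1-deficient and 65.4 CPM in WT libraries (-0.08 ± 0.10). Gabarapl1 had the least open strongest region of all members (18.6 CPM per kb), against 152 for Map1lc3b, 148 for Gabarap and 74.7 for Gabarapl2. The strongest region of Gabarap lay 401 bp beyond the 3′ end of the gene and held 56.4% of its summed level. Of the enzymes, the strongest regions had 182 CPM per kb at Atg5, 129.5 at Atg10, 101 at Atg12, 86.7 at Atg4b, 62.3 at Atg16l1 and 40.6 at Atg7.

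Receptor genes, including those of mitophagy, had the narrowest range of fold changes of the 4 classes on summed counts, from -0.08 to 0.07. They were also the class with the fewest genes. Over single regions, fold changes ran from -0.31 to 0.49 in this class and from -0.42 to 0.38 in the lysosome class. The 23 receptor regions summed to 787 ± 28.4 CPM in OPA1-deficient and 782 ± 66.1 CPM in WT libraries. Of their fold changes, 12 were positive and 11 negative (median 0.02). No region had an unadjusted p under 0.05, against 6.38% of all regions. The 95% intervals of the summed counts lay within 1.25-fold for all 8 genes, as did those of 7470 of 14431 gene models.

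Of the outer-membrane mitophagy receptors, Bnip3 had 1 region, over its start (chr7:138909356-138910063), at 199 CPM per kb. It had 139.8, 153, 152 and 131 CPM in the OPA1-deficient libraries, against 126, 156, 123 and 142 CPM in the WT libraries. All OPA1-deficient values lay within the WT range (0.07 ± 0.08, edgeR adjusted p = 0.985). Its relative Bnip3l, encoding NIX, had 1 region with 115, 111, 107 and 111 CPM in the OPA1-deficient libraries, against 108, 112, 105 and 106 CPM in the WT libraries. OPA1-deficient replicate 1 was the highest and WT replicate 3 the lowest (0.04 ± 0.07, adjusted p = 0.991). Fundc1, on chromosome X, had 6 regions and 42.6, 52.9, 50.1 and 57.1 CPM in the OPA1-deficient libraries, against 54.0, 49.3, 54.9 and 55.4 CPM in the WT libraries in sum. OPA1-deficient replicate 1 was the lowest library at Fundc1 and replicate 4 the highest (-0.08 ± 0.10, adjusted p = 0.986), and without replicate 1 the fold change was 0.00.

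Pink1, the kinase that marks damaged mitochondria, had 3 regions and 60.2 CPM in OPA1-deficient and 60.8 CPM in WT libraries (-0.02 ± 0.09) in sum. Its start region had 46.5, 49.5, 42.6 and 49.2 CPM in the OPA1-deficient libraries, against 50.8, 47.7, 41.6 and 54.0 CPM in the WT libraries, with wide overlap. A weak region inside the gene (chr4:138318611-138318814) had 3.41, 3.62, 3.62 and 3.44 CPM in the OPA1-deficient libraries, against 2.13, 3.12, 2.95 and 1.97 CPM in the WT libraries, so that every OPA1-deficient library lay above every WT library. The difference of 0.47 ± 0.34 was not called (unadjusted p = 0.169, edgeR adjusted p = 0.868).

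The ubiquitin-binding receptor gene Sqstm1, encoding p62, had 1 region with 85.4, 83.9, 87.0 and 78.5 CPM in the OPA1-deficient libraries, against 74.8, 88.1, 70.7 and 87.0 CPM in the WT libraries. WT replicates 1 and 3 were the lowest and WT replicate 2 the highest of the 8 (0.06 ± 0.09, edgeR adjusted p = 0.99). Optn, a receptor of PINK1-dependent mitophagy, had 3 regions and 44.9 CPM in OPA1-deficient and 44.4 CPM in WT libraries (0.02 ± 0.09). Nbr1 had 5 regions and 183 CPM in OPA1-deficient and 186 CPM in WT libraries (-0.03 ± 0.08), its strongest one lying at a neighbouring gene's end as well. Tax1bp1 had 3 regions and 110.1 CPM in OPA1-deficient and 113 CPM in WT libraries (-0.03 ± 0.10). Their strongest regions had 202 CPM per kb at Nbr1, 95.0 at Tax1bp1, 87.1 at Sqstm1 and 42.3 at Optn, beside 109.7 at Bnip3l, 71.5 at Fundc1 and 48.7 at Pink1.

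Lysosome genes had the largest share of negative regions of the 4 classes, gene ends and inside regions together, again without a called difference. Their 41 regions summed to 942, 969, 998 and 936 CPM in OPA1-deficient replicates 1 to 4, against 955, 1096, 949 and 1008 CPM in WT replicates 1 to 4. WT replicates 2 and 4 lay above all OPA1-deficient libraries, and WT replicates 1 and 3 lay within their range. Of the 41 regions, 17 had a positive and 24 a negative fold change (58.5%, median -0.02), against 50.9% negative among all regions. An unadjusted p under 0.05 was found for 2 (4.88%), against 6.38% of all regions. At gene ends alone, 66.7% of lysosome regions were negative, against 70% of initiation regions and 60.1% of all regions at gene ends. By summed counts, 4 of the 12 genes were positive and 8 negative (66.7%), against 72.7% negative among conjugation genes and 59.2% among all gene models.

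Lamp2, on chromosome X, encodes a major glycoprotein of the lysosome membrane and, in one splice form, the receptor of chaperone-mediated autophagy. It had the smallest p of all members. The region over its start (chrX:38456290-38456693) had 21.7, 24.3, 22.7 and 25.4 CPM in the OPA1-deficient libraries, against 32.1, 36.2, 27.9 and 24.7 CPM in the WT libraries. WT replicates 1 to 3 lay above all OPA1-deficient libraries, and WT replicate 4 lay below OPA1-deficient replicate 4. The fold change was -0.37 ± 0.14 with an interval of -0.65 to -0.08 (unadjusted p = 0.0138, edgeR adjusted p = 0.642). Summed over its 4 regions, Lamp2 had 38.9, 46.0, 42.8 and 45.7 CPM in the OPA1-deficient libraries, against 48.8, 62.0, 50.7 and 44.5 CPM in the WT libraries. The sums overlapped, WT replicate 2 being far above the rest (-0.25 ± 0.11, interval -0.47 to -0.03, adjusted p = 0.871). Without WT replicate 2 the fold change of the sum was -0.15 in place of -0.25. Its relative Lamp1, with 3 regions, lay on the other side of 0, with 48.1 CPM in OPA1-deficient and 46.0 CPM in WT libraries (0.06 ± 0.10).

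The 3 members of the proton pump that acidifies the lysosome all had negative fold changes of summed counts, none of them called. Of 15 further tested pump genes, 5 were positive and 10 negative (66.7%, median -0.01), against 59.2% negative among all gene models. Atp6v1a, the catalytic subunit, had 4 regions. The one over its start (chr16:44138889-44139983), which holds the CLEAR core and is shared with the neighbour Naa50, had 108, 122, 125 and 119 CPM in the OPA1-deficient libraries, against 122, 138, 122 and 133 CPM in the WT libraries. The groups overlapped (-0.12 ± 0.08, edgeR adjusted p = 0.853). A second region, 713 bp beyond that end of the gene and also shared with Naa50 (chr16:44140415-44140842), had 41.1, 38.6, 43.0 and 40.0 CPM in the OPA1-deficient libraries, against 44.1, 53.6, 45.0 and 47.9 CPM in the WT libraries. Here the OPA1-deficient libraries all lay below the WT libraries (-0.23 ± 0.11, unadjusted p = 0.0451, adjusted p = 0.771). In sum Atp6v1a had 159.9, 175, 178 and 173 CPM in the OPA1-deficient libraries, against 176, 203, 178 and 196 CPM in the WT libraries (-0.14 ± 0.08, adjusted p = 0.943). Atp6v1h, a regulatory subunit with 1 region, had 33.1, 35.5, 30.8 and 31.2 CPM in the OPA1-deficient libraries, against 40.6, 32.1, 39.3 and 34.4 CPM in the WT libraries, with overlap (-0.17 ± 0.11, adjusted p = 0.953). Atp6v0d1, of the membrane sector, had 3 regions and 91.5 CPM in OPA1-deficient and 96.0 CPM in WT libraries (-0.07 ± 0.08).

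Of the transcription factors, Tfe3, on chromosome X, had 2 regions with 86.3, 80.3, 95.7 and 84.4 CPM in the OPA1-deficient libraries, against 97.2, 95.7, 84.4 and 103 CPM in the WT libraries in sum. WT replicates 2 and 3 lay within the range of the OPA1-deficient libraries and WT replicates 1 and 4 above it (-0.13 ± 0.08, edgeR adjusted p = 0.949). Tfeb had 11 regions and the same mean level in both groups, 229 ± 17.0 CPM in OPA1-deficient and 229 ± 26.2 CPM in WT libraries (0.00 ± 0.09, adjusted p = 1).

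The cathepsin genes, which encode lysosomal proteases, had overlapping levels in both groups. Ctsb had 6 regions and 92.6 CPM in OPA1-deficient and 93.5 CPM in WT libraries (-0.01 ± 0.08), Ctsd had 1 region and 43.2 CPM in OPA1-deficient and 43.1 CPM in WT libraries (0.00 ± 0.10), and Ctsl had 2 regions and 60.2 CPM in OPA1-deficient and 60.8 CPM in WT libraries (-0.02 ± 0.09). Ctss, whose product trims the invariant chain of MHC class II, had 2 weak regions and 15.4 CPM in OPA1-deficient and 16.2 CPM in WT libraries (-0.07 ± 0.16). Mcoln1, the calcium channel of the lysosome membrane, had 2 regions and 46.9 CPM in OPA1-deficient and 45.8 CPM in WT libraries (0.03 ± 0.09). The strongest regions of the class had 168 CPM per kb at Atp6v0d1, 126 at Tfe3, 115 at Tfeb, 113 at Atp6v1a, 87.7 at Ctsd, 69.1 at Ctsl, 66.7 at Lamp2, 65.8 at Mcoln1, 52.8 at Lamp1, 46.0 at Atp6v1h, 31.9 at Ctsb and 21.7 at Ctss. The 5 members with a CLEAR core in the window, Atg3, Atp6v0d1, Atp6v1a, Ctsd and Mcoln1, had fold changes of summed counts between -0.14 and 0.03.

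Macrophages are rich in lysosomes, so their markers are given beside this class. All 12 macrophage markers had regions, summing to 239 to 256 CPM in OPA1-deficient and 248 to 277 CPM in WT libraries. Fold changes were negative for 10 of the 12 (median -0.25), against 59.2% of all gene models, and none was called. At 3 of the 12 (25%), C1qb, Vcam1 and Hmox1, every OPA1-deficient library lay below every WT library, against 3.29% of gene models without overlap in either direction, and these 3 also had an unadjusted p under 0.05, against 5.47%. C1qa, C1qb and C1qc, defining complement genes of tissue macrophages, averaged 1.98, 4.19 and 3.16 CPM in OPA1-deficient libraries, against 3.09, 7.68 and 5.03 CPM in WT libraries. These levels are low, and the groups overlapped at C1qa and C1qc. Other macrophage markers lay on both sides of 0. Fold changes were -0.41 for Spic and -0.18 for Mertk, both with overlap, and -0.32 for Hmox1. They were 0.13 for Adgre1, 0.21 for Fcgr1, -0.05 for Csf1r, -0.00 for Cd68 and -0.02 for Slc40a1. Vcam1 averaged 9.38 CPM in OPA1-deficient and 15.1 CPM in WT libraries (-0.68 ± 0.19, unadjusted p = 0.00147, edgeR adjusted p = 0.508). The part of other cells in the values of the lysosome genes was not tested.

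**Figure D4:**
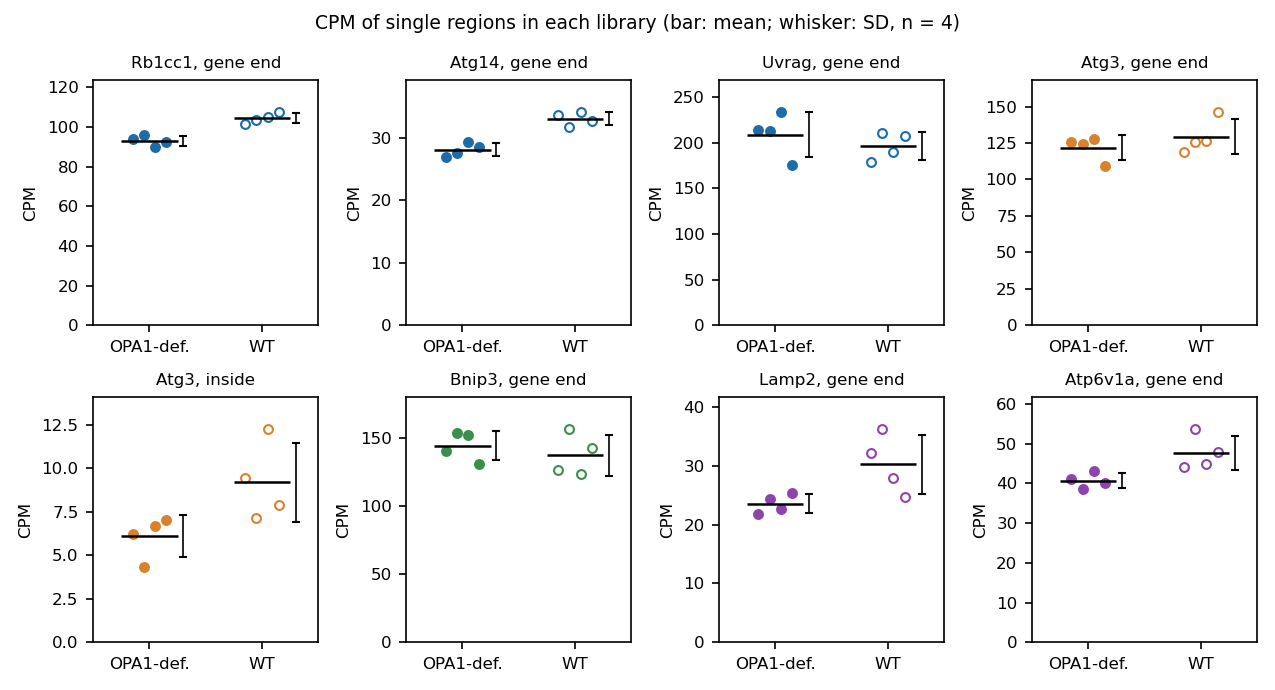
CPM of 8 single member regions in each library, with axes starting at 0; filled points are OPA1-deficient and open points WT libraries, bars are means and whiskers SD (n = 4 per group). The groups do not overlap at the Rb1cc1, Atg14, inside Atg3 and Atp6v1a regions, and overlap at the Uvrag, Atg3 start, Bnip3 and Lamp2 regions. The Atp6v1a region shown is the one 713 bp upstream of the start of the gene span.

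Regions at the ends of members and regions inside them lay on opposite sides of 0, by small amounts. Of the 67 regions at gene ends, 23 had a positive and 44 a negative fold change (65.7% negative, median -0.03), against 60.1% negative among all regions at gene ends (median -0.03). Of the 84 tested regions inside members, 54 were positive and 30 negative (35.7% negative, median 0.06), against 48.6% negative among all regions inside genes (median 0.01). At gene ends 0 of 67 member regions were called, against 0.00754% of all, and 3 (4.48%) had an unadjusted p under 0.05, against 4.29%. Inside, 0 of 84 were called, against 0.0199%, and 1 (1.19%) had an unadjusted p under 0.05, against 6.98%. Regions at the ends were the stronger ones, with a median of 41.9 CPM against 5.21 CPM inside. The split at gene ends depended on scaling for members and for all gene ends alike. With total counts 32 member ends were positive and 35 negative, where 53.5% of all gene ends were negative, and with loess offsets 31 and 36, where 53% were. Without WT replicate 2 the member ends split 31 to 36, where 53.9% of all were negative. Inside regions of members split 56 to 28 with total counts, 50 to 34 with loess offsets and 27 to 18 with a mean of at least 5 CPM (median 0.03). Their median of 0.06 hung on single libraries, at 0.02 without WT replicate 1 (47 positive and 37 negative), where that of all inside regions was 0.01, and at 0.03 without WT replicate 3, against 0.02. Uvrag, Atg7, Tfeb and Atg10, the members with most regions, had positive fold changes at 8 of 11, 11 of 13, 6 of 7 and 7 of 8 tested regions inside them, whereas Ctsb had 2 of 5.

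The 3 members on chromosome X, Lamp2, Tfe3 and Fundc1, all had negative fold changes of summed counts (-0.25, -0.13 and -0.08). Over the 1006 tested regions of that chromosome, 59.8% were negative, with a median of -0.06. The summed level of chromosome X was 13828 to 15395 CPM in OPA1-deficient libraries and 15247 to 15410 CPM in WT libraries. The part of the chromosome as a whole in the values of these members was not tested.

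Over all 153 member regions, the sums were 3942, 4049, 4150.1 and 3822 CPM in OPA1-deficient replicates 1 to 4, against 3858, 4293, 3893 and 4181 CPM in WT replicates 1 to 4. The means were 3991 ± 141 CPM in OPA1-deficient and 4056 ± 214 CPM in WT libraries, apart by less than the SD of either group. WT replicates 2 and 4 were the highest and OPA1-deficient replicate 4 the lowest. At Becn1, OPA1-deficient replicate 4 was also the lowest, followed by WT replicate 3. Single members departed from this order: at Pik3c3, OPA1-deficient replicate 1 and WT replicate 2 were the lowest.

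**Figure D5:**
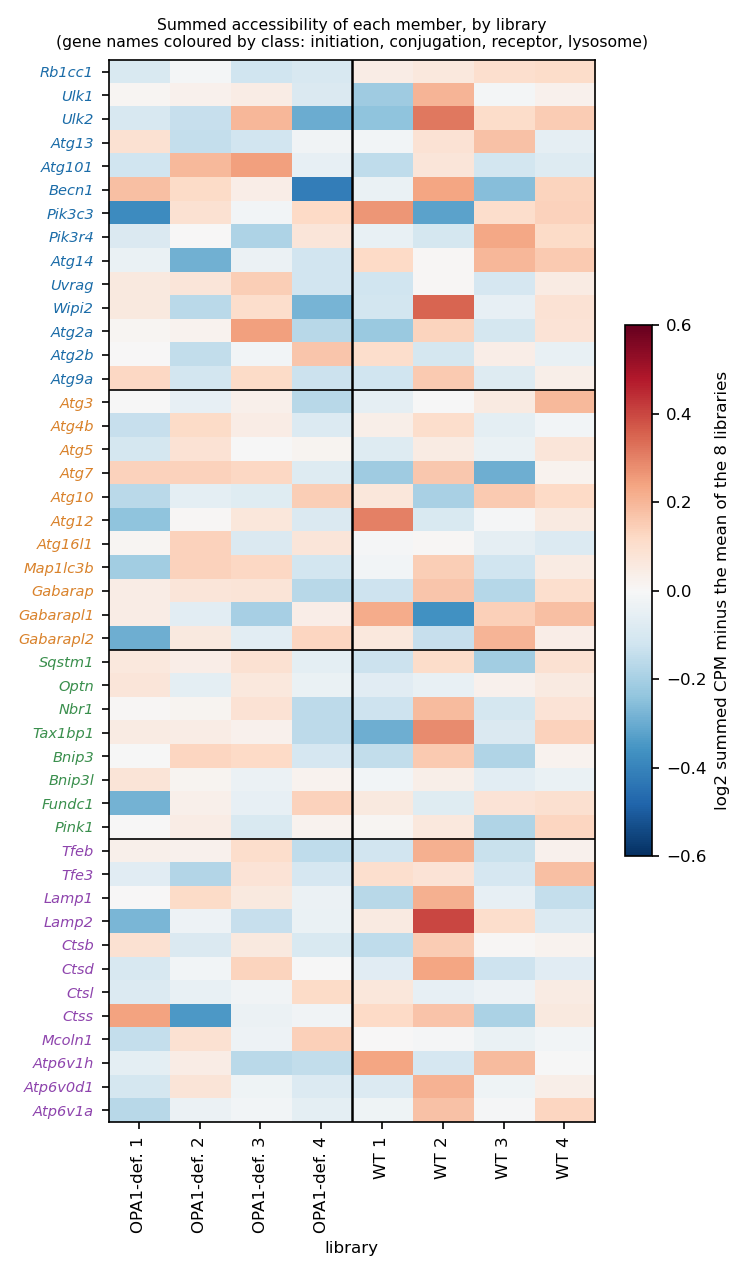
Summed CPM of each member in each library, as log2 of CPM minus the mean of the 8 libraries. OPA1-deficient libraries are on the left, WT libraries on the right, and name colours mark the classes from initiation at the top to lysosome at the bottom. The darkest cells are single libraries, such as WT replicate 2 at Lamp2 and Wipi2 and OPA1-deficient replicate 4 at Becn1, and only Rb1cc1 and Atg14 separate the groups.

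No other gene of the pathway was called either. Of 93 further autophagy, lysosome and proton-pump genes, 91 had tested regions. Of these, 39 had a positive and 52 a negative fold change of summed counts (57.1% negative, median -0.01), against 59.2% negative among all gene models. With edgeR, 0 were called, against 0.0277% of all gene models, and 2 (2.2%) had an unadjusted p under 0.05, against 5.47%. These were Tfec, a relative of TFEB and TFE3, and Ctsc, the protease that activates granule serine proteases. Tfec had 8.95, 9.06, 8.98 and 7.54 CPM in the OPA1-deficient libraries, against 12.3, 12.6, 17.9 and 8.97 CPM in the WT libraries. WT replicate 3 was the highest at Tfec and WT replicate 4 lay within the OPA1-deficient values (-0.57 ± 0.20, adjusted p = 0.725). Ctsc had 92.9, 109, 108 and 127 CPM in the OPA1-deficient libraries, against 144, 108, 132 and 124 CPM in the WT libraries, also with overlap (-0.22 ± 0.10, adjusted p = 0.886). In the other direction, the smallest p belonged to Atp6v0a2, a membrane subunit of the proton pump, and Fyco1, an adaptor that moves autophagosomes along microtubules. Atp6v0a2 had 42.6, 48.7, 46.3 and 43.1 CPM in the OPA1-deficient libraries, against 35.3, 48.0, 38.8 and 36.9 CPM in the WT libraries (0.18 ± 0.11, adjusted p = 0.943). Fyco1 had 65.9, 71.4, 71.2 and 79.4 CPM in the OPA1-deficient libraries, against 58.5, 79.4, 64.4 and 55.1 CPM in the WT libraries (0.16 ± 0.10, adjusted p = 0.953).

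The 1 kb rule left out 21 regions between 1 and 5 kb from a member. The nearest of these lay 1123 bp from Mcoln1 (27.0 CPM, fold change -0.16) and 1420 bp from Atg9a (3.22 CPM, -0.11), and the farthest taken in lay 945 bp from Fundc1 (2.25 CPM, 0.10) and 866 bp from Tfeb (16.5 CPM, 0.05). Of those left out, regions near Gabarap, Lamp2 and Ctsl had an edgeR unadjusted p under 0.05, against 6.38% of all regions, and none was called. They lay 2205, 4472 and 4934 bp away, with fold changes of 0.36, -0.48 and -0.89. Of the 153 regions, 22 also belonged to another gene model, and 2 weak ones, in Atg2b and Atg10, were too low to test, with 1.25 and 0.807 CPM.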

How the data were processed

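Nuclei of sorted splenic cDC1 were treated with transposase, per the labels' protocols, and 1 table of counts over a shared set of regions was deposited. The deposited values are raw counts with no normalization, whole numbers whose totals differ between libraries. The tools named are MACS2 2.1.0.20150603, bedtools, SAMtools, cutadapt 1.9 and Picard 1.65, with mouse build GRCm38, per the submitters' processing notes. Whether reads or fragments were counted, whether starts count from 0 or 1, any shift for the transposase and the rule behind the region set are not given in the sources used here, so coordinates are those of the table, unaltered.

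Regions were assigned to members by overlap with RefSeq gene spans of GRCm38.p6, extended by 1000 bp. filterByExpr removed 659 regions and left 59247. Counts were scaled with TMM factors (0.946 to 1.03) and tested with edgeR 4.0.16 in R 4.3.3 (robust quasi-likelihood, groups of 4 and 4, no covariates). The biological coefficient of variation was 16.4%. Counts of each gene's regions were summed and tested the same way over 14431 gene models. Intervals are 95% and use the fit's degrees of freedom. The procedure was tested on simulated data. Same-numbered libraries of the groups did not deviate together, with correlations from -0.24 to -0.01.

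The members, the gene lists, the motifs and the tests were chosen with earlier results of these data known. Full values are given for the 4 members of each class with the smallest unadjusted p on summed counts, for the region of each class with the smallest p and the one with the highest level at a gene end, and for 2 other pathway genes of each direction. Single regions of those members and of Uvrag, Lamp1 and Pink1 beyond that rule were added after their values were seen. So were the regions near Gabarap, Lamp2 and Ctsl that the 1 kb rule left out. There were 18 alternatives: other scaling, DESeq2 1.42.0, limma-voom (limma 3.58.1), no filter or a mean of at least 5 CPM, a replicate block, gene ends alone, regions within 5 kb, and each library left out.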

Additional observations from a re-analysis of the deposited data

Results flagged for a closer look

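Across the summed levels of the named members and their named regions, 58 groups of 4 libraries were examined for a library far from the other 3 of its group, and 2 were found. Chance alone gives about 1 in 20. For Atg7, the E1-like enzyme of conjugation, the sum over its regions was 93.6 CPM in OPA1-deficient replicate 4, against 107 to 109 CPM in the other OPA1-deficient libraries. For the start region of Atg3, the E2-like enzyme for LC3, OPA1-deficient replicate 4 had 109 CPM, against 125 to 128 CPM in the others of its group. Both outlying values belong to the same library, which also had the lowest sum over all member regions (3822 CPM).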

How the results depend on the processing

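Under all 18 alternatives, 0 member regions and 0 member genes were called, the smallest adjusted p of a member region was 0.377 and that of a member gene 0.373, both without WT replicate 2, and the median over member regions stayed between -0.03 (gene ends alone) and 0.02 (total counts). With single libraries left out it ran from -0.02 to 0.01. Of the named members and regions, all kept the sign of their fold change except Fundc1, whose summed counts ran from -0.14 to 0.0027 with single libraries left out; the cause was not tested.

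Counts of calls in the whole table moved more. Of all regions, 12 were called, against 42 with the DESeq2 test, 3 with limma-voom, 6 with a mean of at least 5 CPM, and 1 to 68 with single libraries left out, the highest without WT replicate 2. Of all gene models, 4 were called, against 9 with DESeq2, 1 with sums over gene ends alone, 2 with regions within 5 kb, and 1 to 43 with single libraries left out. The count of member regions with an unadjusted p under 0.05 was 4 (2.65%, against 6.38% of all regions). It was 2 with DESeq2 (1.32%, against 5.28%), and 7 of 172 within 5 kb, against the same 6.38%. With the replicate number as a block, 0 member regions and 0 member genes were called, and the median over member regions was 0.01. In that fit 2 member regions (1.32%) had an unadjusted p under 0.05, against 5.12% of all regions. In all, 1 region and 1 gene model were called, and the numbers are not known to pair the libraries. The median of initiation regions, -0.01, was -0.08 at gene ends alone and ran from -0.05 (without OPA1-deficient replicate 1) to 0.04 (without OPA1-deficient replicate 2), that of receptor regions, 0.02, from -0.02 (without WT replicate 1) to 0.07 (without WT replicate 2), that of conjugation regions from -0.00 to 0.05, and that of lysosome regions from -0.06 to -0.02.

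Depth limits the weak regions: 84 tested regions inside members had a median of 5.21 CPM and a median standard error of 0.27, against 0.12 at the 67 gene ends, so that intervals stayed within 1.5-fold for 25 and 55 of them.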
